A study of Mus musculus with 7 samples.

Results

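Acetyl-CoA carboxylases and the carnitine shuttle were followed here through 7 genes, taken by gene symbol from a list drawn up with earlier results of these data known: Acaca, Acacb, Mlycd, Cpt1a, Cpt2, Slc25a20 and Crat. All 7 of the 7 genes were measured, among 19933 genes in all, by 8 probe sets that each carry exactly 1 gene symbol (Acaca has 2 of them). The data are liver microarrays of 4-month-old male C57BL/6 mice on normal chow, killed 2 weeks after virus injection at 5 pm (ZT10, zeitgeber time in hours). The knockout group (3 arrays; the labels say HDAC3 knockout) received AAV-Cre alone. The rescued group (4 arrays; HDAC3 rescued wild-type, titled WT) received AAV-Cre and AAV-Flag-HDAC3. AAV is adeno-associated virus, Cre is a DNA recombinase, and HDAC3 is a histone deacetylase of nuclear receptor corepressor complexes. Every mouse thus carried the Cre virus, and the groups differ by the additional HDAC3 vector. The labels name neither the allele that Cre acts on nor the promoters in the viruses, and no uninjected liver was analysed here. They call the arrays biological replicates.

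Acetyl-CoA carboxylases make malonyl-CoA from acetyl-CoA with biotin as cofactor. The Acaca enzyme is cytosolic and feeds fatty acid synthesis, whereas the Acacb enzyme sits at the outer mitochondrial membrane, and malonyl-CoA inhibits the carnitine palmitoyltransferase there. Malonyl-CoA decarboxylase (Mlycd) removes malonyl-CoA. In liver, Cpt1a encodes the outer-membrane transferase that joins long-chain acyl groups to carnitine, Slc25a20 the inner-membrane carrier that exchanges acylcarnitine for carnitine, and Cpt2 the inner transferase that restores acyl-CoA. Crat encodes carnitine acetyltransferase, which moves short acyl groups between carnitine and CoA. In the fed liver malonyl-CoA is high and fatty acid entry is restrained, and in fasting the balance turns over.

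Of these 7 genes, 4 were higher in the knockout livers: Acacb (2.08-fold), Crat (1.60-fold), Cpt2 (1.34-fold) and Slc25a20 (1.32-fold). The 3 others, Acaca, Mlycd and Cpt1a, did not pass the test. A call is an adjusted p under 0.05 in limma's moderated test with Benjamini-Hochberg adjustment over all genes. By that rule 9.54% of all genes were called higher and 4.85% lower. All knockout arrays lay above all rescued arrays for the same 4 members and for 21.0% of all genes. The median difference (knockout minus rescued, log2) was 0.40 over the 7 members and 0.09 over all genes. After median centring of the arrays it was -0.03 over all genes, and the middle member, Slc25a20, differed by 0.29. The median difference of all genes was 0.14 among genes below the median level and 0.0001 above it, and the members lay at percentiles 81.6 to 98.8 of level. The 4 calls held after quantile, median and cyclic loess scaling and with each array left out.

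Array medians, on the linear intensity scale, ran from 105 to 111 for knockout and from 96.3 to 102 for rescued livers. Hdac3, the targeted gene, differed by -0.48 (SE 0.10), with adjusted p = 0.0124 in limma's test, or 0.050013 without knockout replicate 1. Which part of the gene its probe set reads was not analysed here, so it checks the labels in part only. The 7 measured hepatocyte markers (Alb and Apoa1 among them, named here as markers) had differences from -0.07 to 0.05. Every member's level lay above the 95th percentile (6.21 on the log2 scale) of 1190 olfactory and vomeronasal receptor genes, taken as a guide to background. The number of arrays limits the precision. In whole liver, fewer cells of a type and less RNA per cell cannot be told apart.

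Promoter windows are shown because 4 members moved and 3 did not, so that a reader can set the start regions of the members side by side. They come from RefSeq on build GRCm38.p6 (6 of 7 members matched), cover the 250 bases before 1 annotated start, and are written 5′ to 3′ on the gene's strand. Crat, which was called higher, had no window, and that of Mlycd is described below but not printed. Capitals mark matches on either strand to AGGTCA (the nuclear receptor half-site), CACGTG (E-box), GGGCGG (GC box), CCAAT or TATAAA. The carboxylase genes are known to have further promoters, which these windows do not cover. The first pair are the paralogous carboxylases at chr5:114165268-114165517 (plus strand) and chr11:84195188-84195437 (plus strand).
Acacb: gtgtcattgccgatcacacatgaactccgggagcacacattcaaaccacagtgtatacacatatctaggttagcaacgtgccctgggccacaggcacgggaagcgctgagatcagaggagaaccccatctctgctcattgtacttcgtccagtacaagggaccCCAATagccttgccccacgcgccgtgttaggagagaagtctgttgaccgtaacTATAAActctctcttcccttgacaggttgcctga
Acaca: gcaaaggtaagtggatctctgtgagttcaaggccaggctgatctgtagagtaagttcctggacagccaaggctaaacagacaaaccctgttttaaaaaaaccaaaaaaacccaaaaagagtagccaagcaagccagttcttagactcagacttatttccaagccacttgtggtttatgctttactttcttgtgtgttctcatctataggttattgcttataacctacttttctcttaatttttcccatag

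The next 3 are the long-chain shuttle: Cpt2 at chr4:107923590-107923839 (minus strand), Slc25a20 at chr9:108661886-108662135 (plus strand) and Cpt1a at chr19:3323051-3323300 (plus strand).
Cpt2: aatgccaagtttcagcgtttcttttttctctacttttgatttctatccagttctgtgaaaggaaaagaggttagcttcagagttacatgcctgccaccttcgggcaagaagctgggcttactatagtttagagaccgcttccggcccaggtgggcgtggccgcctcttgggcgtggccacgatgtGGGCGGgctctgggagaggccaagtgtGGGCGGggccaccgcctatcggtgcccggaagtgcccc
Slc25a20: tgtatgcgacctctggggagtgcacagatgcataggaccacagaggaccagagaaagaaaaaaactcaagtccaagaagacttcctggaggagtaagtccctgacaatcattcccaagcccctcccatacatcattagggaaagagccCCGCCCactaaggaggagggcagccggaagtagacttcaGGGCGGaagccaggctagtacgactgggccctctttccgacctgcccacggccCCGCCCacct
Cpt1a: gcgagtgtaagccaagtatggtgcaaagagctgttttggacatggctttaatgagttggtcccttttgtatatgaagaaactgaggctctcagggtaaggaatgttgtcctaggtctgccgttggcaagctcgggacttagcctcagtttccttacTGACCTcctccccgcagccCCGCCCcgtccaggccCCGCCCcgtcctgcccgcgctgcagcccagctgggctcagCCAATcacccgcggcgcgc

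The windows of the paralogous carboxylases had little in common. That of Acacb held a TATAAA from -34 to -29 and a CCAAT from -87 to -83, counted back from the start, with a GC content of 52.4% and 10 CpG dinucleotides. That of Acaca held none of the 5 motifs and no CpG, with a GC content of 39.2%. Whether either annotated start is used in these livers was not tested, so the windows may not be the active promoters. Among all 32851 windows of this length, 12.4% held TATAAA, 33.8% CCAAT and 7.87% no CpG, and the median GC content was 52.4%. The windows of Cpt2 and Slc25a20, which rose by similar amounts, held 2 and 3 GC boxes and no TATAAA, both with a GC content of 56.8%. A GC box was present in 32.7% of all windows. Cpt1a, which was not called, also held 2 GC boxes, with a CCAAT and the single AGGTCA match of the 6 members, a motif found in 14.0% of all windows. CACGTG, found in 6.02% of windows, was in none of the 6. The window of Mlycd held 3 CCAAT matches, with a GC content of 67.6% and 22 CpG dinucleotides. A match is a description of the letters and no evidence of binding.

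Of the carboxylases that make malonyl-CoA, 1 rose and the other did not pass the test. Acacb, the mitochondrial-membrane carboxylase, read 10.38, 10.54 and 10.27 in knockout replicates 1 to 3 and 9.69, 9.19, 9.18 and 9.29 in rescued replicates 1 to 4 (log2 intensity). The lowest knockout array stood 0.58 above the highest rescued one, and rescued replicate 1 stood apart from the other 3 of its group. The group means were 10.40 ± 0.14 (SD, n = 3) and 9.34 ± 0.24 (SD, n = 4), a difference of 1.06 (SE 0.12, 95% interval 0.79 to 1.33; adjusted p = 0.000822 in limma's test). With each array left out, the difference ranged from 0.99 to 1.18 and the highest adjusted p was 0.0103.

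Acaca, the cytosolic carboxylase, read 10.05, 10.17 and 9.95 in the knockout and 10.18, 9.90, 10.01 and 9.95 in the rescued arrays. The groups overlapped throughout, with rescued replicate 1 the highest of the 7. The difference was 0.05 (SE 0.09, 95% interval -0.14 to 0.23; adjusted p = 0.705 in limma's test), so a rise of the size seen for Acacb lies outside its interval. Its direction was not settled: the dimmer Acaca probe set differed by -0.11 (SE 0.10), the mean of the pair by -0.030, and the main one by -0.068 after median centring and -0.0096 without knockout replicate 2.

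Each array holds both carboxylases, so their log2 difference within an array takes out any offset that the array adds to both. Acacb minus Acaca was 0.33, 0.37 and 0.31 in the knockout arrays and -0.50, -0.71, -0.83 and -0.66 in the rescued arrays. The sign of such a value depends on the probes and has no meaning of its own, while its shift between groups does. The shift was 1.01, with an SD of 0.03 (n = 3) in the knockout and 0.14 (n = 4) in the rescued group. The 3 pairs of members compared in this way were chosen with the members' own differences known, so their shifts are given as a description, with no test. The spread of Acacb minus Acaca among knockout arrays (SD 0.03) was smaller than that of Acacb (0.14) or Acaca (0.11) alone, since knockout replicate 2 was highest and knockout replicate 3 lowest for both.

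Mlycd, which encodes the enzyme that removes malonyl-CoA, did not pass the test. Its levels were 8.95, 8.66 and 8.76 in the knockout and 8.63, 8.63, 8.71 and 8.78 in the rescued arrays. Knockout replicate 1 was the highest of the 7, and the other knockout arrays lay within the rescued range. The difference was 0.10 (SE 0.08, 95% interval -0.08 to 0.28; adjusted p = 0.383 in limma's test), or -0.013 after median centring. Relative to Acacb on the same array, Mlycd shifted by -0.96.

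**Figure D1:**
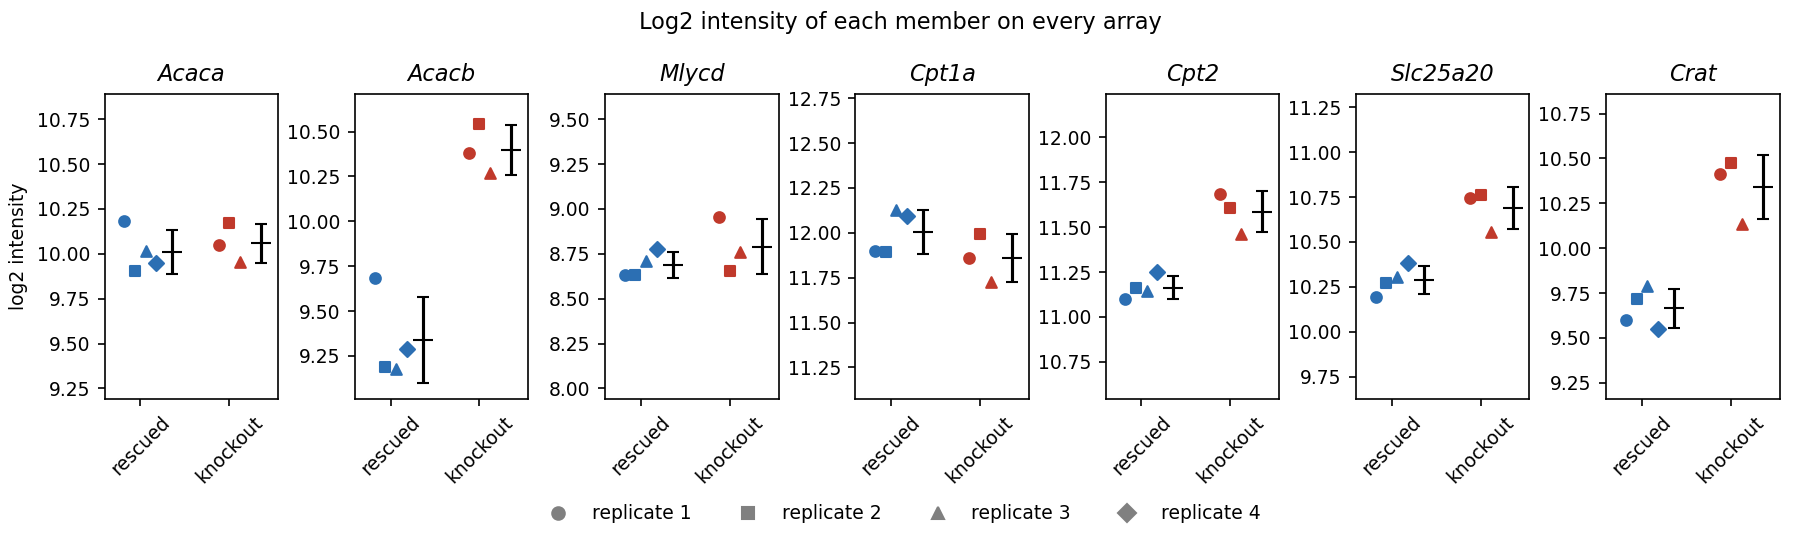
Log2 intensity (y axis) of each of the 7 genes in the rescued (blue) and knockout (red) arrays, 1 point per array with a symbol for its replicate number; bars are mean ± SD (n = 4 and n = 3), and every panel spans the same range of log2 units. The groups are apart for Acacb, Cpt2, Slc25a20 and Crat and overlap for Acaca, Mlycd and Cpt1a.

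On the carnitine side, the entry step and the later steps differed. Cpt1a, the outer-membrane transferase that commits acyl groups to the shuttle, read 11.86, 11.99 and 11.72 in the knockout and 11.90, 11.90, 12.13 and 12.09 in the rescued arrays. The groups overlapped, with knockout replicate 2 above rescued replicates 1 and 2. The difference was -0.14 (SE 0.09, 95% interval -0.34 to 0.05; adjusted p = 0.260 in limma's test). It was negative in all scalings run, down to -0.26 after median centring (adjusted p = 0.0964), and no scaling brought it past the threshold.

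Slc25a20, the carrier of the inner membrane, was at 10.75, 10.76 and 10.55 in the knockout against 10.19, 10.27, 10.30 and 10.38 in the rescued arrays. All 3 knockout arrays lay above all 4 rescued ones, with knockout replicate 3 the nearest. The means were 10.69 ± 0.12 (SD, n = 3) and 10.29 ± 0.08 (SD, n = 4), and the difference was 0.40 (SE 0.08, 95% interval 0.23 to 0.57; adjusted p = 0.0111 in limma's test). It was the call nearest to the threshold among the 4, with adjusted p = 0.0489 without knockout replicate 1.

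Cpt2, the inner transferase, was at 11.69, 11.61 and 11.46 in the knockout against 11.10, 11.16, 11.14 and 11.25 in the rescued arrays. Again the groups did not overlap and knockout replicate 3 was the lowest of its group. The means were 11.59 ± 0.11 (SD, n = 3) and 11.16 ± 0.06 (SD, n = 4), with a difference of 0.42 (SE 0.07, 95% interval 0.26 to 0.59; adjusted p = 0.00750 in limma's test). Its range with each array left out was 0.37 to 0.48.

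The outer and inner transferases can be set against each other within each array as well. Cpt1a minus Cpt2 was 0.17, 0.38 and 0.26 in the knockout arrays and 0.80, 0.74, 0.98 and 0.84 in the rescued arrays. The shift of -0.57 is larger than the SD within either group (0.11 in each; n = 3 and n = 4).

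Crat, the short-chain transferase, had the second largest rise of the 7. It read 10.41, 10.47 and 10.14 in the knockout and 9.60, 9.72, 9.79 and 9.55 in the rescued arrays. The groups were apart, with knockout replicate 3 again the lowest of the knockout arrays. The means were 10.34 ± 0.18 (SD, n = 3) and 9.67 ± 0.11 (SD, n = 4), a difference of 0.67 (SE 0.09, 95% interval 0.47 to 0.88; adjusted p = 0.00229 in limma's test). With each array left out it ranged from 0.61 to 0.78.

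**Figure D2:**
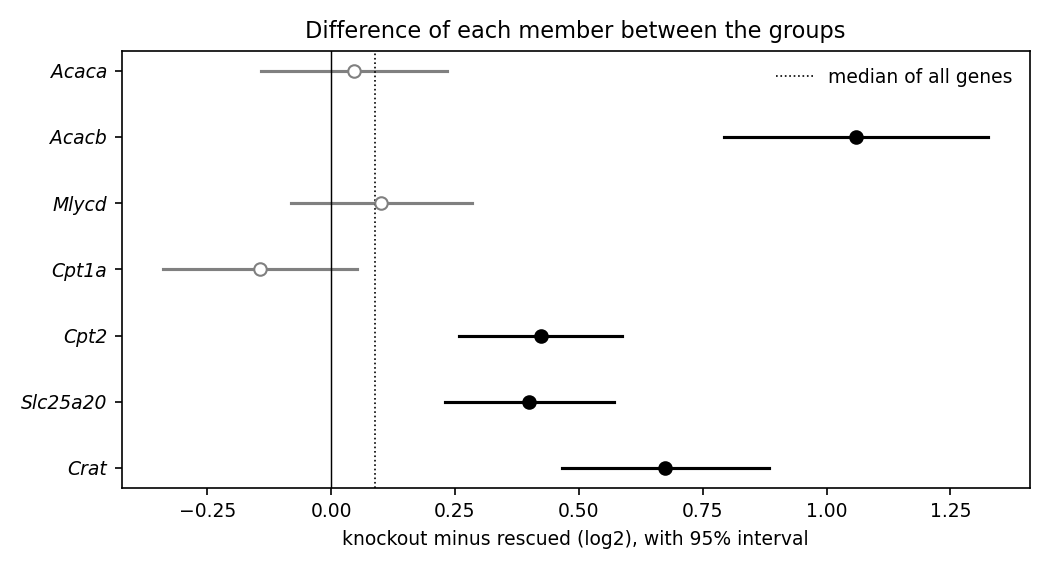
Difference between knockout (n = 3) and rescued (n = 4) arrays in log2 units (x axis) for each of the 7 genes, with its 95% interval from limma; filled points passed an adjusted p under 0.05, and the dotted line is the median of all genes at 0.09. The intervals of Acacb, Crat, Cpt2 and Slc25a20 lie to the right of that line, while those of Acaca, Mlycd and Cpt1a span 0.

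**Figure D3:**
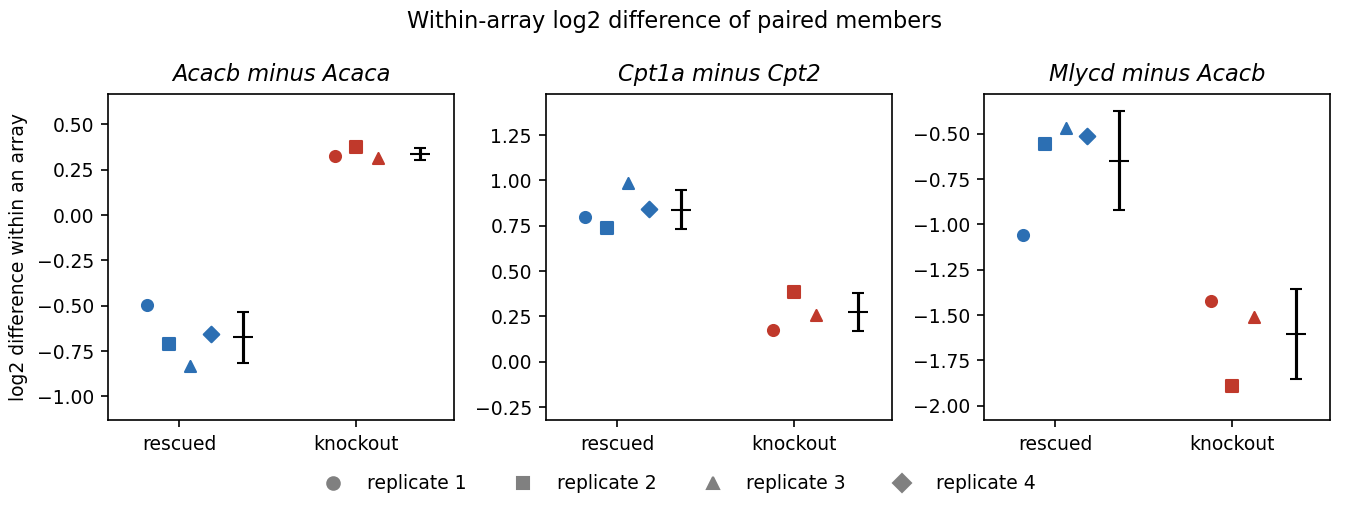
Within-array log2 difference (y axis) of 3 pairs of members in the rescued (blue, n = 4) and knockout (red, n = 3) arrays, 1 point per array, with mean ± SD. The groups do not overlap in any pair, and the shifts are 1.01, -0.57 and -0.96 from left to right.

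Some arrays ranked alike across the members. Knockout replicate 3 was the lowest knockout array for 6 of the 7 genes, all but Mlycd, and it also had the highest Hdac3 of the knockout arrays (9.07, against 8.93 and 8.75). Its median linear intensity over all probe sets was also the lowest of the knockout arrays (105, against 111 and 106). Rescued replicate 1 had the lowest Hdac3 of the rescued arrays (9.23, against 9.38 to 9.55). It was also the highest rescued array for Acacb and Acaca and the lowest for Cpt2 and Slc25a20. Its median intensity was the highest of the rescued arrays (102, against 96.3 to 99.1). Whether the ranks of the members go with the Hdac3 level was not tested.

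**Figure D4:**
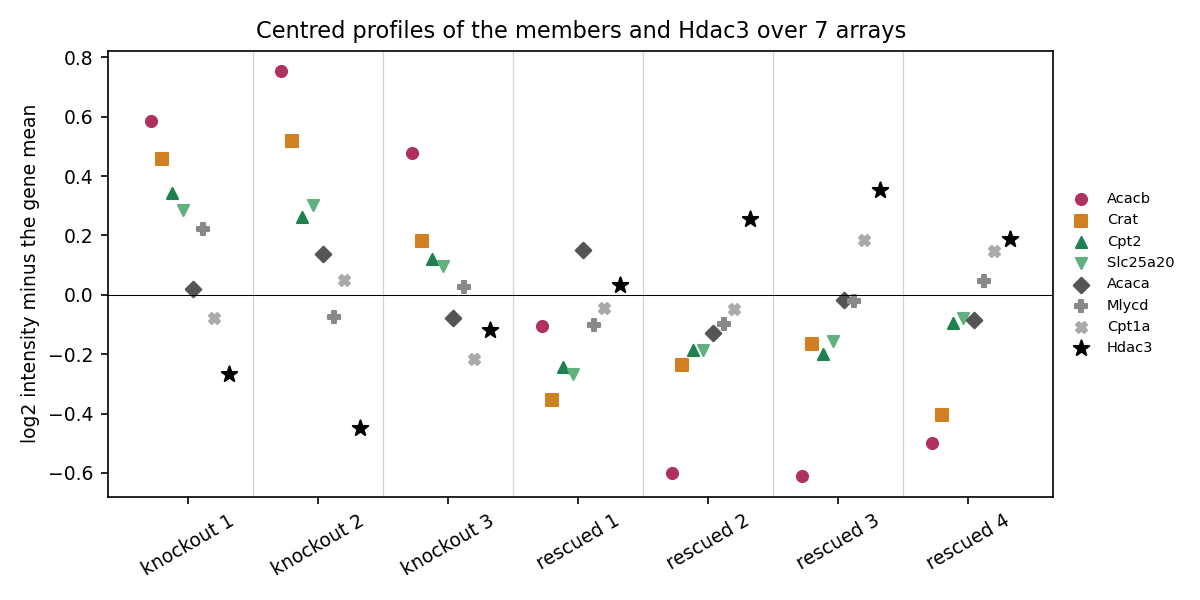
Log2 intensity minus the gene's mean over the 7 arrays (y axis) for the 7 members and Hdac3 (black stars), with 1 column per array (x axis). Acacb, Crat, Cpt2 and Slc25a20 are above 0 in every knockout array and below 0 in every rescued array, and Hdac3 the reverse.

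Likeness of pattern was measured as the root mean square distance between the mean-centred log2 values of 2 genes over the 7 arrays, among 9965 other genes above the median level. Cpt2 and Slc25a20 were each other's nearest gene, at a distance of 0.03. Next to Cpt2 came Dnaja3, a mitochondrial chaperone gene, and Pdha1, a subunit of pyruvate dehydrogenase, both at 0.04, with differences of 0.40 and 0.44. Next to Slc25a20 came the glucose transporter gene Slc2a1 and Immt, of the inner mitochondrial membrane, also at 0.04, with differences of 0.35 and 0.32. Immt lost its call when any of knockout replicates 1 and 2 and rescued replicates 2 and 3 was left out (0.28 to 0.39). After median centring, neither Immt (adjusted p = 0.108) nor Slc2a1 (0.0521) was called.

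The nearest genes to Acacb were Elovl3, a fatty acid elongase, at 0.11, Krt18, a keratin of hepatocytes and other epithelia, at 0.11, and Gask1a at 0.13. Their differences were 1.01, 1.07 and 1.16. The nearest to Crat were Spg20 (0.06), Oser1 (0.07) and the heparan sulfate proteoglycan gene Sdc1 (0.07), with differences of 0.68, 0.69 and 0.69. Such distances mostly carry the group difference, which all these genes share.

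Other genes of the pathway were read from lists put together for this purpose. For comparison with the counts in each list, 9.54% of all genes were called higher and 4.85% lower. No list was tested as a set. A list of 15 genes covered partners and regulators of acetyl-CoA carboxylase, acetyl-CoA supply, and the making and use of malonyl-CoA. Of these, 1 was higher and 2 lower. The lower ones are 2 of the 6 listed subunit genes of AMP-activated protein kinase, which phosphorylates and inhibits both carboxylases. Prkaa1, a catalytic subunit, was at 8.63 ± 0.18 (SD, n = 3) on knockout arrays and at 9.05 ± 0.12 (SD, n = 4) on rescued ones, a difference of -0.42 (adjusted p = 0.0215 in limma's test). Prkag1, a regulatory subunit, differed by -0.30 (adjusted p = 0.0272). The other catalytic subunit, Prkaa2, named after its value was seen, differed by -0.22 (adjusted p = 0.141). The remaining 3 subunit genes in the list, likewise named after their values were seen, had positive differences that did not pass: 0.16 for Prkab1, 0.07 for Prkag2 and 0.024 for Prkab2. The higher gene was Acss2, a cytosolic acetyl-CoA synthetase, at 0.67 (adjusted p = 0.0414), whose arrays overlapped between groups.

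These 3 calls depended on which arrays were used. Prkaa1 lost its call when knockout replicate 2, knockout replicate 3, rescued replicate 3 or rescued replicate 4 was left out (-0.52 to -0.33). Prkag1 lost it when any array other than knockout replicate 3 and rescued replicate 1 was left out (-0.34 to -0.25). Acss2 kept it only without rescued replicate 1 (from 0.55 to 0.85), and was not called after any of the 3 rescalings (adjusted p from 0.0621 to 0.0701) or with a variance trend and robust spread (0.0750).

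Of 8 measured genes of biotin supply and other biotin-dependent carboxylases, 1 was higher and 1 lower. Mccc1, a subunit of methylcrotonyl-CoA carboxylase, differed by -0.38 (adjusted p = 0.0137 in limma's test, or 0.0562 without knockout replicate 1). Pcx, pyruvate carboxylase, differed by 0.24 (adjusted p = 0.0471). It lost the call after each rescaling (adjusted p from 0.118 to 0.323) and when any array other than knockout replicate 1 was left out, with differences from 0.20 to 0.30.

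Of 6 measured genes of carnitine synthesis and transport, 1 passed. Bbox1, whose enzyme makes carnitine from gamma-butyrobetaine, differed by -0.31 (adjusted p = 0.0442 in limma's test). Of the 7 fits that each leave out an array, only those without knockout replicate 2 or rescued replicate 1 kept this call (-0.41 to -0.23), and with array weights its adjusted p was 0.0614. The plasma membrane carnitine transporter Slc22a5, named after its value was seen, differed by 0.21 (adjusted p = 0.216).

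Both other measured carnitine acyltransferases were higher. Crot, the peroxisomal carnitine octanoyltransferase, rose from 11.78 ± 0.07 (SD, n = 4) to 12.10 ± 0.05 (SD, n = 3), a difference of 0.33 (adjusted p = 0.0157 in limma's test). Its adjusted p was 0.0510 without knockout replicate 1 and 0.0864 after median centring. Cpt1c, a paralog best known from brain, differed by 0.29 (adjusted p = 0.0453); by level it stood at percentile 41.3. It was not called in any of the 3 rescalings (adjusted p from 0.146 to 0.180) or with array weights (0.0504), and with an array left out it was called only without rescued replicate 1 (differences from 0.23 to 0.33).

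Upstream of the shuttle, long-chain acyl groups are joined to CoA by acyl-CoA synthetases. Of 7 listed genes of this kind 5 were measured, while Acsl1 and Acsl3 had no probe set with exactly 1 symbol. Of the 5 measured genes 1 passed, and it was lower. Acsl4, which prefers polyunsaturated fatty acids, was at 9.003 ± 0.043 (SD, n = 3) against 9.82 ± 0.13 (SD, n = 4), 1.76-fold lower (adjusted p = 0.000298 in limma's test). It kept this call in all scalings and with each array left out, with differences from -0.87 to -0.78 in the latter.

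Downstream of the shuttle, 2 of 12 genes of mitochondrial beta-oxidation were higher, against 9.54% of all genes. Acadm, the medium-chain acyl-CoA dehydrogenase, differed by 0.35 (adjusted p = 0.0128 in limma's test) and kept its call with each array left out. Hadhb, the thiolase subunit of the trifunctional protein, differed by 0.37 (adjusted p = 0.0363). The call of Hadhb was kept only when knockout replicate 3 or rescued replicate 4 was left out (0.30 to 0.47) and was lost after median centring (adjusted p = 0.121). The median difference of these 12 genes was 0.15, against 0.40 for the 7 members.

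Among 15 measured transcription factors and coactivators known to act on either route, 1 was higher and 1 lower. Nr1d1, a circadian nuclear receptor that recruits HDAC3 through its corepressor, differed by 0.76 (adjusted p = 0.0187 in limma's test). Its knockout arrays were spread, at 11.51, 10.87 and 10.69. With each array left out its difference ranged from 0.51, without knockout replicate 1, to 0.92, and the highest adjusted p was 0.0480. The oxysterol receptor gene Nr1h3 (LXR alpha), an activator of lipogenic genes, differed by -0.59 (adjusted p = 0.00163). Ppara and Srebf1, which encode the main activators of fatty acid oxidation and of lipogenesis, were named after their values were seen. Ppara differed by -0.04 (adjusted p = 0.664) and Srebf1 by -0.16 (adjusted p = 0.262).

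Acacb is also the main carboxylase of striated muscle, so markers of other tissues and cells are given beside it. The markers named here fall outside the rule for named genes and were chosen after their values were seen. Of 5 muscle markers 1 was called higher, Acta1 (0.32, adjusted p = 0.0384 in limma's test), against 9.54% of all genes. All 5 had a positive difference, as did 68.5% of all genes. Their linear intensities summed to 619 to 705 on knockout arrays and 513 to 585 on rescued ones. The 4 measured adipocyte markers summed to 245 to 289 and 224 to 243, and 2 of them, Plin1 and Retn, lay above the 95th percentile of the receptor genes. On the log2 scale Retn was at 6.64 and 6.38 (adjusted p = 0.0516), with all knockout arrays above all rescued ones, Plin1 at 6.76 and 6.61, and Adipoq at 4.55 and 4.36. Leukocyte markers (8 measured) summed to 564 to 666 and 548 to 595, and macrophage markers (8) to 3133 to 3440 and 2434 to 3612. Endothelial markers (6) summed to 3944 to 4763 and 4684 to 4800, stellate cell markers (7) to 4191 to 4665 and 4138 to 4616, and cholangiocyte markers (4) to 513 to 584 and 445 to 492. Called among these were the stellate cell marker Lrat, higher by 0.32 (adjusted p = 0.0398), and the endothelial marker Clec4g, with a difference of -0.29 (adjusted p = 0.0477). Lower-level genes as a whole shifted upward in the knockout arrays (median 0.14). The part of any of these in the member differences was not tested.

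**Figure D5:**
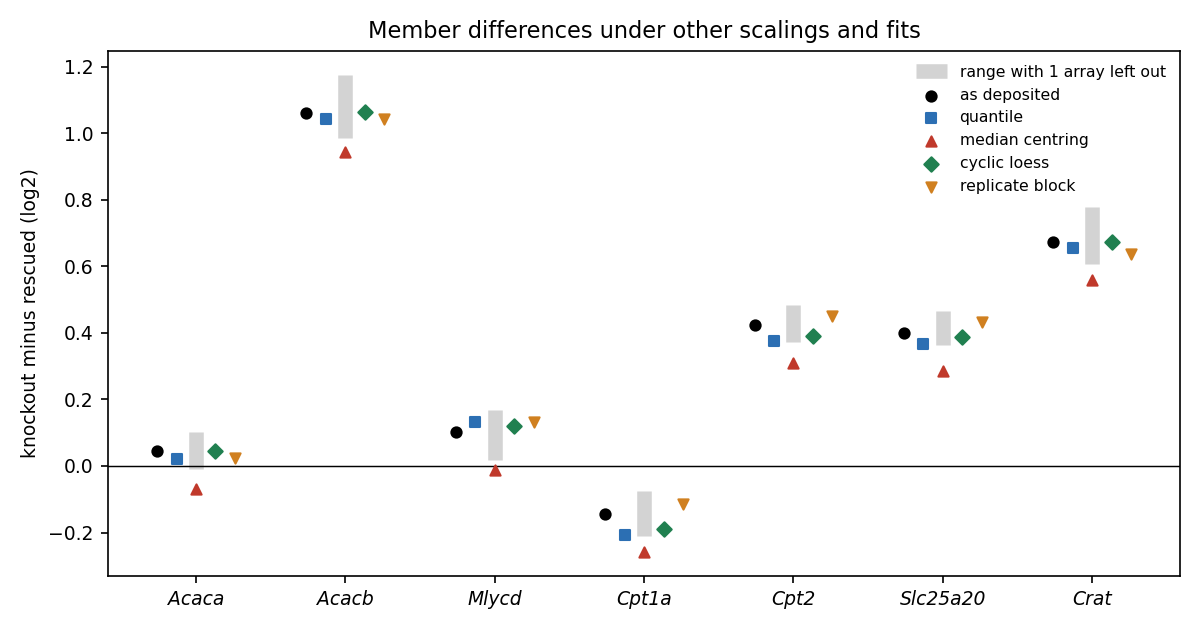
Knockout minus rescued difference (y axis, log2) of each of the 7 genes as deposited, after 3 rescalings of the arrays and with the replicate number as a block (symbols), with the range over 7 fits that each leave out 1 array (grey bars). The block fit leaves out rescued replicate 4. Median centring gives the lowest value for every gene, and Acacb stays between 0.94 and 1.18 in the settings drawn.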

How the data were processed

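Liver RNA was hybridised to 7 Affymetrix Mouse Gene ST arrays. For every array, the authors' deposited table gives 1 intensity per probe set, which its values show to be linear. RMA and Partek are named for it per the submitters' processing notes, without versions or roles. The column medians differ, and which scaling was applied last stays unknown. No source used here names the genome build behind the table.

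Log2 was taken of all 27541 rows. Probe sets were named from the platform annotation (21631 with 1 symbol, 1317 with several, 4593 with none), and each gene was read from its brightest probe set with 1 symbol. Other probe sets of a member are given beside it. The main test was limma's (version 3.58.1, R 4.3.3; lmFit and eBayes, two-sided, without covariates or a filter on dim genes) with Benjamini-Hochberg adjustment over 19933 genes. Shifts between pairs of members are described without a test. The fit was tested on simulated data.

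Alternatives were quantile normalization, median centring, cyclic loess, genes above the median level, mean of probe sets, all rows, array weights, a variance trend with robust spread, a replicate block, and each array left out. The replicate block was fitted without rescued replicate 4. Named genes are the members, Hdac3, up to 4 called genes of each pathway list with the largest differences, and the 3 genes nearest in pattern to each called member. Cell type markers and other genes named outside this rule are said to be so. The members, lists, pairs and motifs were chosen with earlier results of these data known. Promoter sequences are from RefSeq. Figures were drawn with matplotlib 3.10.9.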

Additional observations from a re-analysis of the deposited data

Results flagged for a closer look

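Among 34 profiles of the 4 rescued arrays (members, named genes and pairs), 4 had 1 array far from the other 3, measured as its gap to the nearest array over the group's range. For 1 profile chance gives about 1 in 20. These profiles are not independent, since pairs are built from members and some genes were chosen for likeness to members. Their count was therefore not tested against that rate. Mlycd minus Acacb in rescued replicate 1 had a ratio of 0.850: it was -1.06 there and -0.56 to -0.47 in the other 3, and the shift was -1.09 without that array. Crot in rescued replicate 1 had a ratio of 0.834 (11.67, against 11.80 to 11.83). Nr1d1 in rescued replicate 4 had a ratio of 0.833 (10.0015, against 10.32 to 10.38). Pdha1 in rescued replicate 4 had a ratio of 0.870 (9.69, with the next array at 9.61).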

How the results depend on the processing

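Acacb, Crat, Cpt2 and Slc25a20 kept their direction and call, and Cpt1a its direction, in every alternative run. Uncalled values changed sign: Acaca to -0.068 and Mlycd to -0.013 after median centring, and Acaca to -0.030 with the mean of probe sets. With an array left out, Acaca ranged from -0.0096 to 0.10. The shift of Mlycd minus Acacb was -0.91 after quantile normalization and -0.94 after cyclic loess, against -0.96 as deposited. With an array left out, the shifts ranged from 0.96 to 1.07 (Acacb minus Acaca), from -0.62 to -0.52 (Cpt1a minus Cpt2) and from -1.09 to -0.82 (Mlycd minus Acacb). The calls over all genes numbered 2867 (1901 higher, 966 lower). The higher calls numbered 842 after quantile normalization, 517 after median centring (with 2167 lower), 816 after cyclic loess and 1032 among genes above the median level. The share of higher calls was 66.3% as deposited, 42.3%, 19.3% and 41.6% in those 3 scalings. With an array left out, calls ranged from 897 to 3263 (449 to 2199 higher, 417 to 1064 lower), with 897 without knockout replicate 1, 1721 without knockout replicate 2, and 1200, 948 and 1331 without rescued replicates 2, 3 and 4. The cause was not tested.

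Same-numbered arrays correlated in their deviations from the group means at 0.15, 0.003 and 0.005, and of the knockout arrays only replicate 1 correlated best with its own number, so the numbers were not taken to pair the samples. The fit with the replicate block left out rescued replicate 4, whose number no knockout array has. It called 1938 genes, 1233 of them higher, and the same 4 members. Without rescued replicate 4 and without a block, 1331 genes were called. Of the other named genes, Prkaa1 (adjusted p = 0.0574), Pcx (0.0980) and Bbox1 (0.0948) lost their calls in the block fit. All of these also lost their calls without rescued replicate 4 and with no block. The number of arrays limits all of these values.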
